A study of Mus musculus with 16 samples.

Results

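Loss of Hdac6 from fat was compared with its Cre controls in the white fat pad that lies along the epididymis, a visceral depot of male mice. The comparison covers 4 libraries labelled AdKO, from mice with Hdac6 knocked out in adipose tissue, and 4 labelled AdCre, adiponectin-Cre controls. They are 8 of the 16 libraries of the series, and the other 8 compare the HDAC6 inhibitor tubastatin A with vehicle. All 8 came from male C57BL/6 mice that had been on a high-fat diet for 20 weeks, were labelled 28 weeks old and were labelled as vehicle treated. The controls carry the Cre transgene too, so the knockout of Hdac6 is the difference the labels give. The adiponectin promoter is active in mature adipocytes, so other cells of the pad keep an intact gene. Nothing in the labels ties each library to an animal of its own, and p-values therefore measure the spread between these libraries. Genes were taken with a mean FPKM (fragments per kilobase of gene, scaled to sequencing depth) of at least 1 over the 8 libraries, which left 13257 of the 54532 gene IDs in the table.

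HDAC6 is an unusual member of the histone deacetylases: it works mainly in the cytoplasm, where it removes acetyl groups from alpha-tubulin, cortactin and the chaperone HSP90. A ubiquitin-binding domain lets it carry misfolded, ubiquitin-tagged protein along microtubules to aggresomes and autophagy. White fat stores triglyceride in adipocytes and secretes hormones such as leptin and adiponectin. In obesity the same tissue holds many macrophages and lymphocytes among the fat cells, and all of them contribute to its RNA.

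Hdac6 itself was read in every library (ENSMUSG00000031161, chromosome X, 7930120 to 7947889, minus strand, GRCm38). It stood at 4.11, 2.66, 3.44 and 3.52 FPKM in AdKO replicates 1 to 4, against 4.15, 4.15, 4.74 and 3.64 FPKM in AdCre replicates 1 to 4. AdKO replicate 1 lay among the controls and AdKO replicate 2 was the lowest, so the groups overlapped. The mean was 3.43 ± 0.595 FPKM in AdKO and 4.17 ± 0.45 FPKM in AdCre (SD, n = 4 each), 17.7% lower, with an exact two-sided permutation p of 0.0571 where 70 relabelings allow no less than 0.0286. Between 320 and 456 reads of Hdac6 were recovered in an AdKO library, and between 386 and 615 in an AdCre library. A value for the whole gene cannot show a missing exon, and the reads of adipocytes and of other cells cannot be told apart in this tissue.

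The deacetylases as a family lay near their controls. Of the 18 classical deacetylases and sirtuins tested, Hdac6 included, 10 had a positive and 8 a negative log2 fold change, with a median of 0.00. Hdac9, which represses adipocyte differentiation, stood at 1.12, 1.85, 1.68 and 1.03 FPKM in AdKO against 2.0, 1.94, 2.28 and 2.12 FPKM in AdCre. It was the only 1 of the 18 whose groups were apart (limma log2 fold change -0.37, SE 0.13, adjusted p = 0.403), as they were for 6.55% of all genes. The change of Hdac9 was -0.16 without AdKO replicates 1 and 4, where it was lowest. Hdac10, the nearest relative of HDAC6 and a polyamine deacetylase, averaged 8.03 ± 0.985 FPKM in AdKO and 6.88 ± 0.416 FPKM in AdCre, with overlap. Sirt2, the other tubulin deacetylase, averaged 22.5 ± 2.49 FPKM in AdKO and 21.7 ± 1.79 FPKM in AdCre. Log2 fold changes were 0.13 or less in size for Hdac1, Hdac2, Hdac3, Hdac4, Hdac5, Hdac7, Hdac8, Sirt1, Sirt3 and Sirt5. They were 0.27, 0.14, 0.07 and -0.22 for Sirt7, Sirt6, Sirt4 and Hdac11.

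Partners and substrates of HDAC6 were near their controls as a list. The groups were apart for 2 of 21 tested genes, and for 6.55% of all genes. Over 21 tested members the median log2 fold change was -0.08, with 6 positive and 15 negative. Atat1, the tubulin acetyltransferase that works against HDAC6, stood at 4.84, 3.87, 4.57 and 4.10 FPKM in AdKO against 3.60, 3.79, 3.5 and 3.5 FPKM in AdCre, with every AdKO library above every control. Sqstm1, which encodes the autophagy receptor p62, averaged 130.0 ± 16.2 FPKM in AdKO and 158 ± 1.69 FPKM in AdCre, without overlap. By limma, log2 fold changes were 0.21 ± 0.07 for Atat1 and -0.29 ± 0.10 for Sqstm1 (± SE), with adjusted p-values of 0.399 and 0.394. Among the alpha-tubulins, Tuba1a (chromosome 15, 98949837 to 98953703, minus strand, GRCm38) stood at 145, 348, 478 and 203 FPKM in AdKO against 500.0, 602, 546 and 607 FPKM in AdCre. All AdKO libraries were below all controls, and AdKO replicates 1 and 4 were the lowest. Its log2 fold change was -1.08 (SE 0.34, limma adjusted p = 0.364), and -0.46 without those 2 libraries. Tuba1b averaged 251 ± 25.5 FPKM in AdKO and 274 ± 18.6 FPKM in AdCre, with overlap. How reads were shared between near-identical tubulin copies is not given, so single tubulin values are uncertain.

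**Figure D1:**
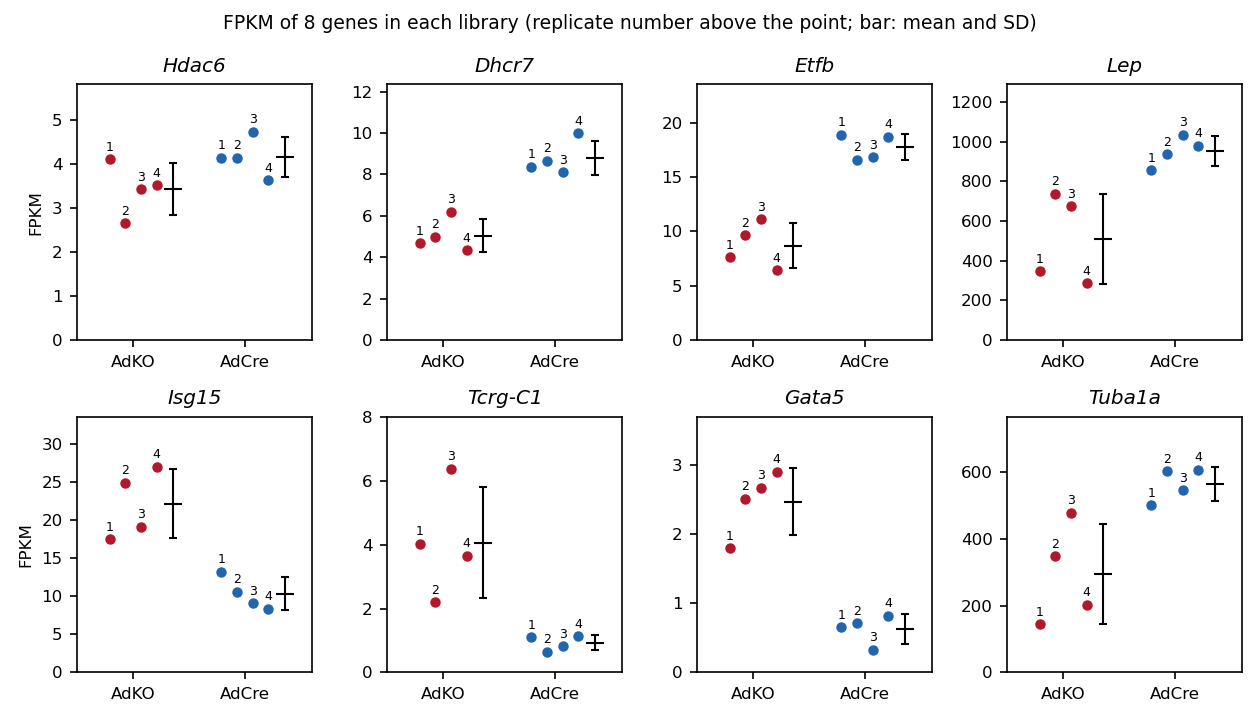
FPKM of 8 genes in each library, with the 4 AdKO libraries left of the 4 AdCre libraries, the replicate number above each point and the mean with its SD as a bar. Hdac6 overlaps between the groups, while Dhcr7, Etfb, Lep, Isg15, Tcrg-C1, Gata5 and Tuba1a do not. For Lep and Tuba1a the lowest points are AdKO replicates 1 and 4.

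The libraries were of like depth, at 19072729 to 20834569 recovered reads in AdKO and 18234386 to 22306236 in AdCre. Over all genes, no single gene passed the test. Limma on log2(FPKM + 1) called 0 of 13257 genes (0.0%) at a Benjamini-Hochberg adjusted p under 0.05, and the smallest adjusted p was 0.186. At an unadjusted p under 0.05, 631 genes (4.76%) were higher and 826 (6.23%) lower in AdKO. Limma voom on reads recovered from the FPKM values also called 0 genes, with 620 higher and 725 lower at an unadjusted p under 0.05. Groups did not overlap for 868 genes (6.55%), of which 370 were higher (2.79%) and 498 lower (3.76%) in AdKO. Rescaling to TPM, an equal total per library, turned the split at an unadjusted p under 0.05 to 754 higher and 650 lower, against 43.3% higher as deposited and 53.7% higher after rescaling. With 1 spread estimated from all 16 libraries, 46 genes were called, 20 higher and 26 lower. They included Gata5, Cxadr, Cd163l1, Cxcr6 and Tcrg-C1 among the higher genes, and Dhcr7, Mvd, Etfb, Ndufb4, Ndufb9, Cox7a2 and Grb14 among the lower ones. Of these, Gata5, Cd163l1, Cxcr6 and Tcrg-C1 passed the filter through AdKO alone. The median log2 fold change over all genes was 0.001, with a median SE of 0.117. Values below are therefore descriptions of 4 libraries against 4, and the adjusted p of each gene named is above 0.05.

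The AdKO libraries lay in pairs, and this bears on what follows. On the first principal component, which held 33.8% of the variance, AdKO replicates 1 and 4 lay at -34.36 and -35.57 and AdKO replicates 2 and 3 at 14.63 and 0.62, against 4.28 to 22.14 in AdCre. The level of adipocyte identity genes, as the mean log2(FPKM + 1) centred on the 8 libraries, was -0.50, 0.39, 0.41 and -0.74 in AdKO replicates 1 to 4, against -0.18, 0.30, 0.18 and 0.15 in AdCre. The median SD of log2 values was 0.181 in AdKO and 0.132 in AdCre, and it was larger in AdKO for 67.4% of genes. Summed over 10 listed genes, transcripts of epididymal and other epithelium stood at 11.7 and 34.7 FPKM in AdCre replicates 2 and 3. Every other library had at most 1.24 FPKM. Single genes of the list differed between these 2 controls. Gpx5, a secreted epididymal peroxidase, was at 5.97 FPKM in AdCre replicate 2 and at 0.0803 in replicate 3, and was listed at 0 in all 4 AdKO libraries and the other 2 controls. Adam7 was at 1.91 and 5.57 FPKM in the same 2 controls, and Epcam at 22.8 FPKM in AdCre replicate 3, against at most 0.894 FPKM in AdKO. Other members went otherwise at low levels. Crisp1 was at 0.148 and 0.139 FPKM in AdKO replicates 1 and 4, against 0.197 in AdCre replicate 2 and 0 in replicate 3. Rnase10 was at 0.0884 to 0.346 FPKM in AdKO, against 0.502 and 0.108 in AdCre replicates 2 and 3. The Gpx5 value of AdCre replicate 3 rested on 3 reads. List medians are therefore also given without AdKO replicates 1 and 4, a choice made after seeing these data, and without AdCre replicates 2 and 3. In bulk tissue, fewer cells of a type and less RNA per cell cannot be told apart. Of 63 gene lists with at least 3 tested members, 19 medians turned sign without AdKO replicates 1 and 4 and 5 without AdCre replicates 2 and 3.

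**Figure D2:**
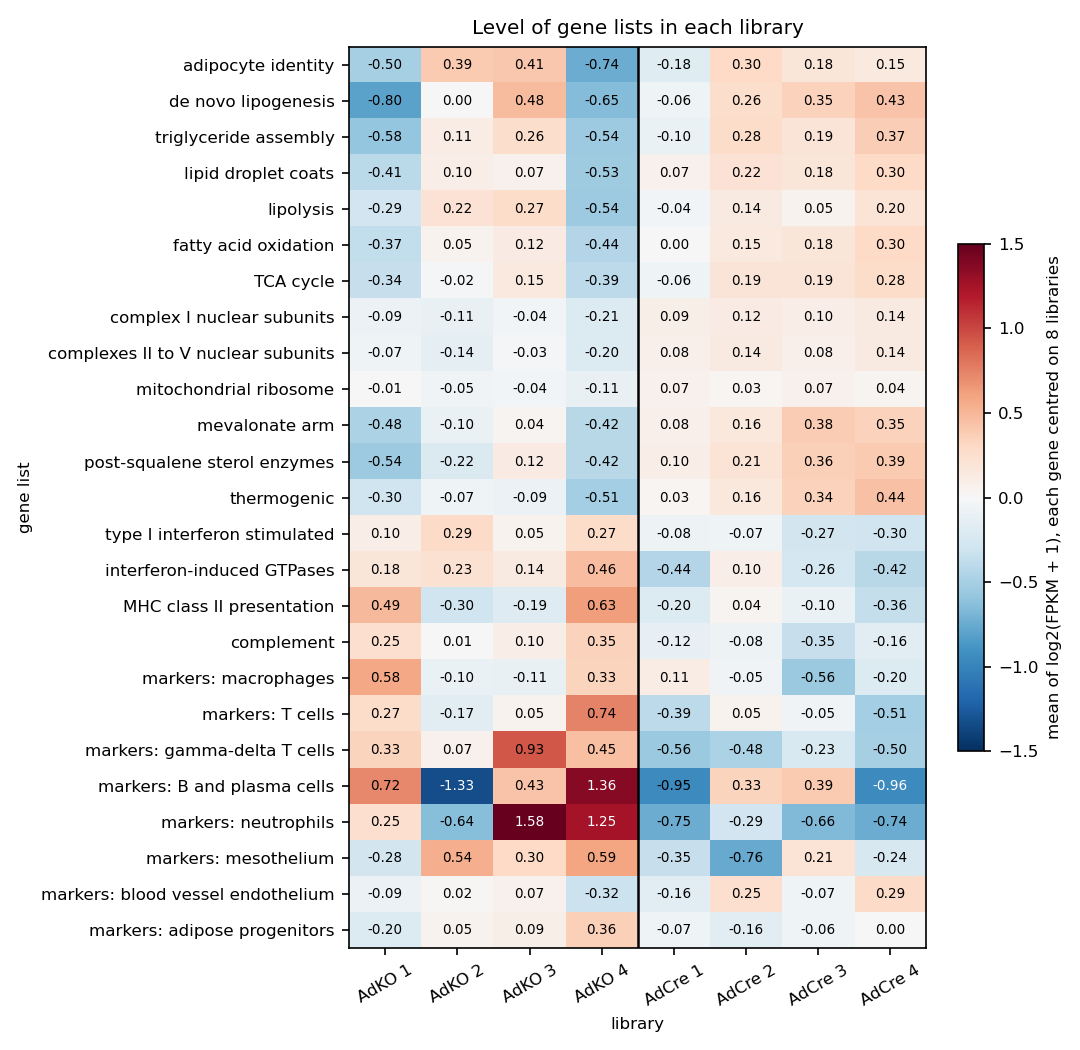
Levels of 25 gene lists (rows) in 4 AdKO libraries, left of the line, and 4 AdCre libraries, as the mean log2(FPKM + 1) of the tested members with each gene centred on the 8 libraries. AdKO replicates 1 and 4 are low for adipocyte, lipogenesis and triglyceride genes, while complex I, interferon GTPase and gamma-delta T cell lists have the same sign in all 4 AdKO libraries.

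Sterol synthesis enzymes were lower in AdKO along nearly the whole pathway. Cells make cholesterol from acetyl-CoA through mevalonate and squalene, and SREBP-2 raises most of these enzymes when membrane sterol is scarce. Of the 9 mevalonate-arm enzymes tested, 9 had a negative log2 fold change, as did 49.7% of all genes, with a median of -0.48. At an unadjusted p under 0.05, 7 of the 9 were lower, and 4 did not overlap. Among all genes, 6.23% were lower at that p and 3.76% were lower without overlap. Of the 12 enzymes after squalene, 11 were negative with a median of -0.61, 9 were lower at that p and 6 did not overlap. This group was already seen in earlier results of these data, and its single steps are given here.

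At the start of the pathway, Acat2, which joins acetyl-CoA units, averaged 13.8 ± 4.70 FPKM in AdKO and 21.1 ± 4.40 FPKM in AdCre. Hmgcs1, the HMG-CoA synthase, stood at 28.7, 46.0, 57.2 and 31.2 FPKM in AdKO against 50.5, 60.9, 78.7 and 86.3 FPKM in AdCre, with AdKO replicate 3 reaching into the control range. The mevalonate kinase genes Mvk and Pmvk averaged 9.43 ± 2.02 and 14.2 ± 4.20 FPKM in AdKO, against 12.8 ± 1.13 and 23.6 ± 2.65 FPKM in AdCre, both without overlap. Mvd, the decarboxylase that makes isopentenyl diphosphate, stood at 6.88, 6.76, 8.86 and 8.76 FPKM in AdKO against 10.9, 10.9, 11.7 and 11.4 FPKM in AdCre. It had the smallest p of the arm, with all AdKO libraries below all controls (limma log2 fold change -0.48, SE 0.10, adjusted p = 0.217). The change of Mvd was -0.48 without AdKO replicates 1 and 4 as well. Idi1, the isomerase, averaged 2.65 ± 1.12 FPKM in AdKO and 4.68 ± 1.0 FPKM in AdCre. Fdps could not be followed: it was listed at 0.103 to 0.224 FPKM in AdKO and 0.151 to 0.43 FPKM in AdCre, below the filter. Ggps1, which leads to protein prenylation, averaged 7.61 ± 0.801 FPKM in AdKO and 7.89 ± 0.305 FPKM in AdCre. Fdft1, the squalene synthase, averaged 5.90 ± 1.30 FPKM in AdKO and 6.97 ± 0.395 FPKM in AdCre, also with overlap.

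After squalene, the oxygenation and ring-closing steps came first. Sqle, the epoxidase, averaged 2.82 ± 0.912 FPKM in AdKO and 4.40 ± 0.975 FPKM in AdCre, and Lss, which closes the rings to lanosterol, 3.31 ± 1.33 FPKM in AdKO and 5.91 ± 0.71 FPKM in AdCre. Cyp51, the lanosterol demethylase, stood at 5.88, 6.20, 9.53 and 6.91 FPKM in AdKO against 10.1, 11.7, 14.6 and 12.8 FPKM in AdCre. Only the AdKO replicate 3 value came near the controls, and the groups were apart (limma log2 fold change -0.72, SE 0.15, adjusted p = 0.244). Of the next steps, Msmo1 averaged 4.68 ± 0.603 FPKM in AdKO and 6.64 ± 0.718 FPKM in AdCre, and Nsdhl 12.6 ± 5.23 FPKM in AdKO and 22.9 ± 3.59 FPKM in AdCre. Hsd17b7 averaged 2.31 ± 0.748 FPKM in AdKO and 3.67 ± 0.847 FPKM in AdCre. Ebp and Sc5d act on the sterol double bonds. Ebp averaged 18.3 ± 0.737 FPKM in AdKO and 20.7 ± 0.435 FPKM in AdCre, a narrow gap without overlap. Sc5d averaged 19.7 ± 8.15 FPKM in AdKO and 36.1 ± 7.34 FPKM in AdCre, also without overlap.

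The last enzyme of the pathway had the smallest limma p of the sterol enzymes, though not the largest change. Log2 fold changes were larger in size for others, such as Sc5d at -0.91 and Nsdhl at -0.87. Dhcr7, the 7-dehydrocholesterol reductase (ENSMUSG00000058454, chromosome 7, 143823145 to 143848410, plus strand, GRCm38), stood at 4.69, 4.99, 6.20 and 4.33 FPKM in AdKO against 8.37, 8.67, 8.12 and 10 FPKM in AdCre. No AdKO library came within 1 FPKM of a control. The log2 fold change was -0.70 (SE 0.11, limma adjusted p = 0.186), and -0.57 without AdKO replicates 1 and 4. The members that did not follow were the sterol C14-reductase genes Tm7sf2, at 1.57 ± 0.561 FPKM in AdKO and 1.87 ± 0.374 FPKM in AdCre, and Lbr. Lbr, which also encodes a nuclear envelope receptor, was the single positive member at 7.39 ± 0.331 FPKM in AdKO and 6.49 ± 0.809 FPKM in AdCre. Without AdKO replicates 1 and 4 the list medians were -0.30 for the mevalonate arm and -0.34 for the enzymes after squalene, and 3 of 9 and 5 of 12 were lower at an unadjusted p under 0.05. Without AdCre replicates 2 and 3 the medians were -0.47 and -0.56.

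**Figure D3:**
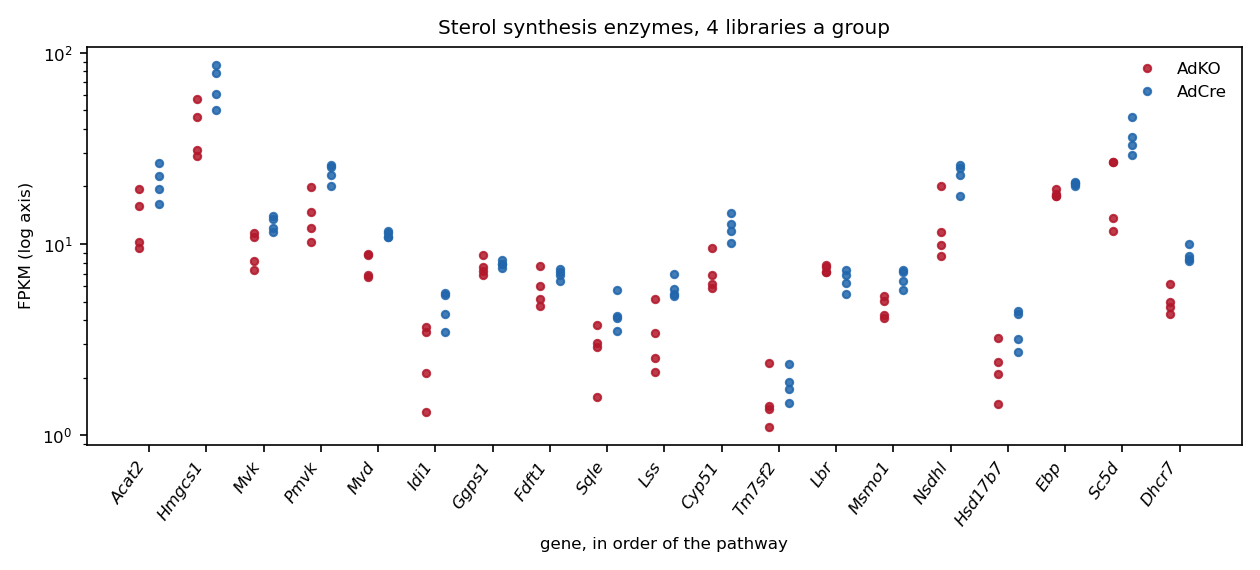
FPKM on a log axis of sterol synthesis enzymes in pathway order, with the 4 AdKO libraries of each gene left of its 4 AdCre libraries. The AdKO points of Mvd, Cyp51 and Dhcr7 all lie below those of AdCre, while the groups overlap for others, such as Ggps1, Tm7sf2 and Lbr.

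SREBP control and sterol transport genes were less uniform. Insig1, which holds SREBP in the endoplasmic reticulum and is induced by it, averaged 63.7 ± 35.5 FPKM in AdKO and 105 ± 20.1 FPKM in AdCre, with overlap. Npc2, which releases cholesterol from lysosomes, averaged 169 ± 16.8 FPKM in AdKO and 209 ± 25.0 FPKM in AdCre. The LXR targets Abca1, a cholesterol exporter, and Mylip, a ubiquitin ligase, stood the other way. Abca1 averaged 40.7 ± 10.2 FPKM in AdKO and 31.4 ± 2.14 FPKM in AdCre, and Mylip 27.3 ± 3.01 FPKM in AdKO and 23.4 ± 2.73 FPKM in AdCre, both with overlap. Of the 18 tested members 12 were negative, with a median of -0.11. One promoter of the pathway is shown for the element that SREBP binds, TCACNCCAC (N any base, either strand). In RefSeq windows of GRCm38.p6 from 250 bases before to 50 after the start, it occurred for 1 of 17 sterol enzymes with a window (5.88%) and for 136 of 9658 tested genes (1.41%). Capitals mark the match, which is a description of letters and not a measured binding site.
Hmgcs1, chr13:119690189-119690248, plus strand: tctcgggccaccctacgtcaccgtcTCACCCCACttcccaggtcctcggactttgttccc

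Genes of the fat cell itself followed the split inside AdKO. All 16 de novo lipogenesis genes had a negative log2 fold change (median -0.47), 12 of 14 triglyceride assembly genes (median -0.35), 11 of 11 lipid droplet coat genes (median -0.45) and 17 of 20 adipocyte identity genes (median -0.25). At an unadjusted p under 0.05, 5, 4, 1 and 1 of them were lower, as were 6.23% of all genes. The counts for droplet coat and adipocyte identity genes lay near that share. Dgat2, which adds the last acyl chain of triglyceride, stood at 240.0, 599, 631 and 231 FPKM in AdKO against 560.0, 726, 883 and 832 FPKM in AdCre. Replicates 1 and 4 were far below every control, while replicates 2 and 3 lay within the control range. Scd2, a stearoyl-CoA desaturase, stood at 30.9, 84.8, 128 and 42.1 FPKM in AdKO against 104, 118, 130.0 and 131 FPKM in AdCre, with the same 2 libraries low. Pparg, the master regulator of fat cells, averaged 36.5 ± 8.55 FPKM in AdKO and 46.3 ± 7.34 FPKM in AdCre. Adipoq, which encodes adiponectin, stood at 649, 1202, 1227 and 557 FPKM in AdKO against 789, 1066, 948 and 964 FPKM in AdCre, and its replicates 2 and 3 were above all controls. With AdKO replicates 2 and 3 alone the medians were -0.12 for lipogenesis, 0.02 for triglyceride assembly, -0.09 for droplet coats and 0.21 for adipocyte identity.

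Lep and Angptl4 stood below the controls in all 4 AdKO libraries. They were the only members without overlap of 20 adipocyte identity genes and of 12 other adipokine genes. Of all genes, 3.76% were lower without overlap. A further 5 genes from outside these lists also stood below, and these were named for a large fold without overlap or for a small p-value. The leptin gene Lep, whose product signals fat stores to the brain (ENSMUSG00000059201, chromosome 6, 29060220 to 29073877, plus strand, GRCm38), stood at 346, 737, 673 and 288 FPKM in AdKO against 855, 935, 1035 and 979 FPKM in AdCre. Its log2 fold change was -1.01 (SE 0.31, limma adjusted p = 0.346), and -0.43 without AdKO replicates 1 and 4. Angptl4, a secreted inhibitor of lipoprotein lipase, stood at 155, 230.0, 206 and 147 FPKM in AdKO against 292, 268, 264 and 285 FPKM in AdCre. Every AdKO value was below every control (limma log2 fold change -0.61, SE 0.15, adjusted p = 0.299), and the change was -0.35 without replicates 1 and 4. Oxtr, the oxytocin receptor, averaged 30.2 ± 9.56 FPKM in AdKO and 72.8 ± 22.0 FPKM in AdCre, and Gys2, a glycogen synthase, 6.77 ± 4.43 FPKM in AdKO and 17.8 ± 5.51 FPKM in AdCre. Tph2, a tryptophan hydroxylase, stood at 16.6, 19.3, 37.2 and 16.6 FPKM in AdKO against 42.0, 50.8, 50.4 and 41.5 FPKM in AdCre. Fcor, a modulator of the factor FOXO1, averaged 22.3 ± 5.07 FPKM in AdKO and 42.7 ± 7.74 FPKM in AdCre. Maoa, which breaks down monoamines, averaged 12.6 ± 1.63 FPKM in AdKO and 19.6 ± 2.26 FPKM in AdCre. For all 7 of these genes the AdKO libraries were apart from the controls, which for Oxtr, Gys2 and Tph2 was part of the rule that named them. Cfd, which encodes the adipokine adipsin, went with no group, at 232, 659, 777 and 210 FPKM in AdKO against 158, 380.0, 388 and 213 FPKM in AdCre.

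Groups did not overlap for 3 of 15 tested insulin signalling genes, and for 6.55% of all genes. Grb14, an adaptor that inhibits the insulin receptor, stood at 2.67, 2.95, 3.41 and 2.37 FPKM in AdKO against 4.11, 5.17, 6.52 and 6.11 FPKM in AdCre (limma log2 fold change -0.74, SE 0.14, adjusted p = 0.217). Its relative Grb10 stood the other way, at 9.26 ± 1.09 FPKM in AdKO and 6.72 ± 0.952 FPKM in AdCre. Pik3ip1, an inhibitor of PI3-kinase, stood at 6.27, 5.36, 8.07 and 7.35 FPKM in AdKO against 4.07, 4.53, 4.93 and 4.34 FPKM in AdCre, with the AdKO libraries all higher (limma log2 fold change 0.50, SE 0.12, adjusted p = 0.284). Insr, the insulin receptor gene, averaged 6.02 ± 1.19 FPKM in AdKO and 6.54 ± 0.452 FPKM in AdCre. The median of the 15 tested members was -0.11, with 12 negative, and it was 0.07, with 9 positive, without AdKO replicates 1 and 4.

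Nuclear genes of the mitochondrial respiratory chain were lower by a small and even amount, and here the split inside AdKO mattered little. Complex I passes electrons from NADH into the chain, complexes II to IV carry them to oxygen, and complex V makes ATP. All 36 nuclear subunits of complex I had a negative log2 fold change (median -0.20), 19 were lower at an unadjusted p under 0.05 and 14 did not overlap. The shares over all genes were 6.23% lower at that p and 3.76% lower without overlap. Of 39 nuclear subunits of complexes II to V, 37 were negative (median -0.20), 22 were lower at that p and 16 did not overlap. The mitochondrial ribosome followed with 63 of 77 members negative (median -0.10), 19 lower at that p and 14 without overlap. The cytosolic ribosome did not, with 59 of 78 members positive (median 0.08), and that direction turned to -0.18 without AdKO replicates 1 and 4. Without these 2 libraries the medians were -0.18 for complex I, -0.17 for complexes II to V and -0.10 for the mitochondrial ribosome. The summed level of complex I was 1159 to 1300.0 FPKM in AdKO and 1429 to 1478 FPKM in AdCre, and that of complexes II to V 2841 to 3408 FPKM in AdKO and 3547 to 3794 FPKM in AdCre. Neither sum overlapped. These are short genes, with a median length of 1643 bases for complex I, and over all genes the median change was -0.001 in the 4417 shortest genes and 0.005 in the 4414 longest. At an unadjusted p under 0.05, 240 of the shortest genes were higher and 348 lower, against 177 higher and 174 lower of the longest, and the part of gene length in these lists was not tested.

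Single subunits showed how narrow the groups were. Ndufb4, an accessory subunit of complex I, stood at 14, 11.9, 12.0 and 12.1 FPKM in AdKO against 17.3, 16.9, 16.6 and 17.9 FPKM in AdCre. Ndufb9 stood at 25.5, 28.6, 31.4 and 25.4 FPKM in AdKO against 36.8, 46.6, 45.8 and 42.8 FPKM in AdCre. In both, every AdKO library was below every control, and replicates 1 and 4 of Ndufb4 were not lower than the others. Cox7a2, a subunit of cytochrome c oxidase, averaged 55.3 ± 4.52 FPKM in AdKO and 76.5 ± 1.11 FPKM in AdCre, and Atp5k, of ATP synthase, 23.6 ± 4.29 FPKM in AdKO and 42.9 ± 6.32 FPKM in AdCre. By limma, log2 fold changes were -0.43 ± 0.07 for Ndufb4, -0.61 ± 0.10 for Ndufb9, -0.46 ± 0.08 for Cox7a2 and -0.84 ± 0.15 for Atp5k (± SE), and adjusted p-values lay between 0.197 and 0.206. Ndufa3 averaged 29.5 ± 1.45 FPKM in AdKO and 40.8 ± 3.71 FPKM in AdCre. The small inner-membrane proteins Romo1, at 32.8 ± 2.42 FPKM in AdKO and 44.6 ± 2.29 FPKM in AdCre, and Usmg5, at 128 ± 10.7 FPKM in AdKO and 180.0 ± 8.46 FPKM in AdCre, were also without overlap. Of the 13 protein-coding genes of the mitochondrial genome, 12 were negative (median -0.29). Only mt-Nd4 and mt-Nd6 were lower without overlap, as were 3.76% of all genes. The summed level of the 13 did overlap, at 16912 FPKM in AdKO replicate 4 to 24510 FPKM in AdKO replicate 1, against 21995 to 26326 FPKM in AdCre. mt-Nd4 averaged 1470 ± 227 FPKM in AdKO and 1900 ± 97.9 FPKM in AdCre.

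The binding element of NRF1, a factor known for driving respiratory genes, was looked for as GCGCA, any base and GCGC, on either strand in the same RefSeq windows. It occurred for 17 of 62 respiratory subunits with a window (27.4%) and for 1086 of 9658 tested genes (11.2%). Windows of the subunits Ndufb4 and Atp5k, whose values are given above, are shown with the match in capitals.
Ndufb4, chr16:37654525-37654584, minus strand: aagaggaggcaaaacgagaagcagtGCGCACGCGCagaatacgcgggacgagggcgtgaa
Atp5k, chr5:108434415-108434474, minus strand: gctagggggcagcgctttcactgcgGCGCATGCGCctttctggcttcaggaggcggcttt

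**Figure D4:**
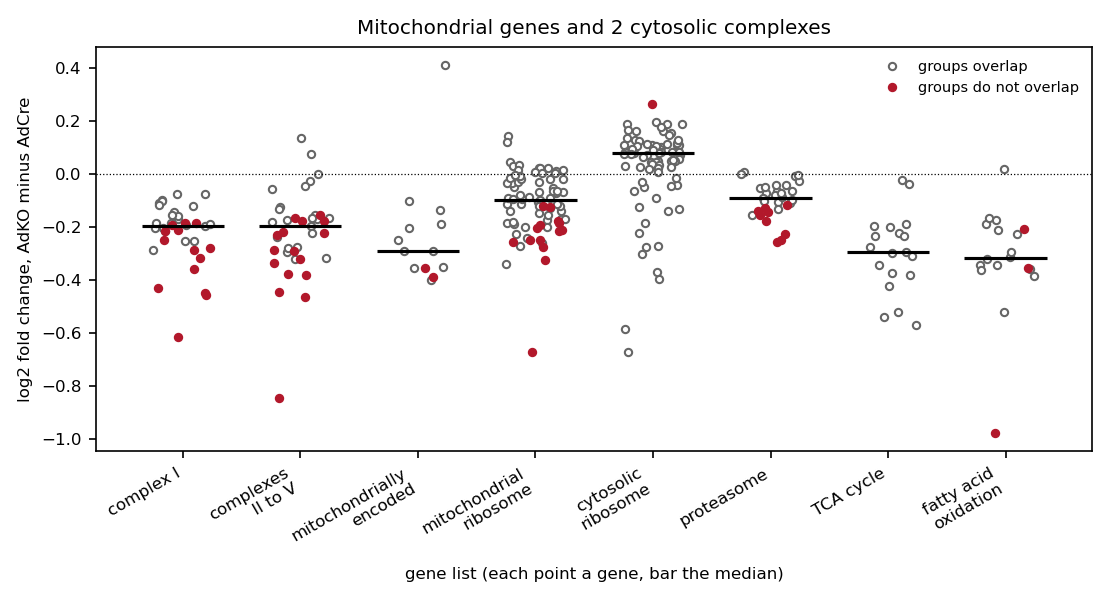
Log2 fold change, AdKO minus AdCre, of each tested gene (point) in 8 lists, with the median as a bar and genes without overlap between the groups filled. Complex I and complexes II to V lie at medians of -0.20, the mitochondrial ribosome at -0.10 and the cytosolic ribosome at 0.08.

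Fuel oxidation upstream of the chain was lower too, and 1 gene stood out. Etfb encodes the beta subunit of the electron transfer flavoprotein, which takes electrons from fatty acid and amino acid oxidation to ubiquinone (ENSMUSG00000004610, chromosome 7, 43444083 to 43457800, plus strand, GRCm38). It stood at 7.61, 9.64, 11.1 and 6.45 FPKM in AdKO against 18.9, 16.6, 16.8 and 18.7 FPKM in AdCre. The highest AdKO library was well below the lowest control (limma log2 fold change -0.98, SE 0.15, adjusted p = 0.186), and the change was -0.73 without AdKO replicates 1 and 4. Its partner subunit Etfa averaged 102 ± 20.3 FPKM in AdKO and 124 ± 10.4 FPKM in AdCre, and Etfdh, which receives the electrons, 11.6 ± 2.69 FPKM in AdKO and 15.1 ± 2.43 FPKM in AdCre. Both overlapped. The trifunctional protein genes Hadha and Hadhb averaged 36.5 ± 2.07 and 35.7 ± 6.03 FPKM in AdKO, against 42.4 ± 3.94 and 45.6 ± 3.61 FPKM in AdCre, without overlap. In all, 17 of 18 fatty acid oxidation genes (median -0.32), 19 of 19 TCA cycle genes (median -0.29) and 20 of 22 branched-chain amino acid genes (median -0.21) were negative. With AdKO replicates 2 and 3 alone these medians were -0.04, -0.10 and 0.06. Of the glycolysis genes 13 of 16 were negative (median -0.19), with Aldoa, an aldolase, at 351 ± 64.9 FPKM in AdKO and 483 ± 31.3 FPKM in AdCre, without overlap. Its median without these 2 libraries was -0.16.

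Thermogenic genes were at low levels in this visceral fat. Ucp1, the uncoupling protein, was at 0 to 0.117 FPKM in AdKO and 0.0822 to 0.436 FPKM in AdCre, below the filter, and rested on 4 reads or fewer in each AdKO library. Of 17 listed genes 11 passed the filter, and all 11 were negative with a median of -0.46 (-0.27 without AdKO replicates 1 and 4). Otop1, a proton channel, stood at 2.07, 4.12, 3.32 and 2.0 FPKM in AdKO against 5.57, 6.58, 10 and 6.56 FPKM in AdCre (limma log2 fold change -1.09, SE 0.22, adjusted p = 0.217). It was the only member of the list without overlap, and 3.76% of all genes were lower without overlap. Cox8b, the muscle and brown fat form of a cytochrome oxidase subunit, averaged 9.70 ± 3.32 FPKM in AdKO and 22.0 ± 7.39 FPKM in AdCre, with overlap.

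Interferon-stimulated genes were higher in AdKO. Type I interferons signal through STAT and IRF factors to a set of antiviral genes, and interferon gamma adds large GTPases of the GBP and IRG families. Of 41 type I interferon genes tested, 37 had a positive log2 fold change, as did 50.3% of all genes, with a median of 0.37. At an unadjusted p under 0.05, 24 were higher and 0 lower, and 17 did not overlap, all higher. Among all genes, 4.76% were higher at that p and 2.79% were higher without overlap. Isg15, a ubiquitin-like modifier (ENSMUSG00000035692, chromosome 4, 156199424 to 156200818, minus strand, GRCm38), stood at 17.5, 24.9, 19.1 and 27.0 FPKM in AdKO against 13.2, 10.6, 9.07 and 8.34 FPKM in AdCre. Irf7, a transcription factor of the response, stood at 11.5, 12.2, 12.4 and 13.4 FPKM in AdKO against 9.13, 7.83, 7.37 and 6.25 FPKM in AdCre. In both genes all AdKO libraries were above all controls, and replicates 1 and 4 did not stand apart from replicates 2 and 3. By limma, log2 fold changes were 1.03 ± 0.17 for Isg15 and 0.64 ± 0.10 for Irf7 (± SE), each with an adjusted p of 0.197, and that of Isg15 was 1.03 without AdKO replicates 1 and 4 as well. Oasl2, a 2'-5' oligoadenylate synthetase-like protein, averaged 12.6 ± 2.01 FPKM in AdKO and 6.62 ± 0.925 FPKM in AdCre. Sp100, of nuclear bodies, averaged 15.4 ± 0.777 FPKM in AdKO and 11.7 ± 0.654 FPKM in AdCre, and Rnf213, a giant ubiquitin ligase, 8.58 ± 0.622 FPKM in AdKO and 5.75 ± 0.564 FPKM in AdCre. The 3 did not overlap. Of the signalling factors, Stat2 averaged 12.8 ± 0.978 FPKM in AdKO and 9.73 ± 1.74 FPKM in AdCre, without overlap. Rsad2, the antiviral viperin, averaged 5.64 ± 0.939 FPKM in AdKO and 5.67 ± 1.04 FPKM in AdCre, so that not every member followed.

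All 15 tested interferon-induced GTPases of 17 listed had a positive log2 fold change, with a median of 0.49. At an unadjusted p under 0.05, 12 were higher, and 7 did not overlap, where the shares over all genes were 4.76% and 2.79%. Gbp3 stood at 13, 15.1, 14.6 and 14.7 FPKM in AdKO against 7.45, 11.8, 8.99 and 7.59 FPKM in AdCre (limma log2 fold change 0.64, SE 0.13, adjusted p = 0.233). AdCre replicate 2 was the highest control here. The IRG genes Tgtp2 and Igtp averaged 5.85 ± 1.78 and 18.3 ± 4.49 FPKM in AdKO, against 2.89 ± 0.70 and 10.6 ± 2.66 FPKM in AdCre, and Tgtp2 did not overlap. Tgtp1 and Tgtp2 are close copies, so how reads were split between them is uncertain. Without AdKO replicates 1 and 4 the medians were 0.31 for the type I genes, with 38 of 41 positive, and 0.42 for the GTPases, with 15 of 15 positive. Without AdCre replicates 2 and 3 they were 0.35 and 0.70.

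Promoter letters of a few of these genes are shown for the interferon-stimulated response element, searched as GAAA, any 2 bases and GAAA, on both strands of the same RefSeq windows. It occurred for 14 of 29 type I interferon genes with a window (48.3%), for 9 of 10 GTPases (90.0%) and for 373 of 9658 tested genes (3.86%). Capitals mark every match in each stretch of 60 bases, overlapping matches run together, and a match on the other strand starts and ends with TTTC. The windows are those of GRCm38.p6.
Isg15, chr4:156200862-156200921, minus strand: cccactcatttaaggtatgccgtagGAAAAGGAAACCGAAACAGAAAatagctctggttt
Ifit1, chr19:34640760-34640819, plus strand: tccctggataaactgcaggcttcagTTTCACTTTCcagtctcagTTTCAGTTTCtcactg
Gbp3, chr3:142559974-142560033, plus strand: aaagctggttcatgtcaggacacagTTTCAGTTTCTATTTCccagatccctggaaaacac
Igtp, chr11:58199496-58199555, plus strand: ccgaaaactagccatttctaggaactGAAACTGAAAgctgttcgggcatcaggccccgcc
Tgtp2, chr11:49064248-49064307, minus strand: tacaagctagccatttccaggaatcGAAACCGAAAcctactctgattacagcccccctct
The stretch of Isg15 held 3 overlapping matches, which end 57 bases before the start of the gene, and that of Ifit1 held 2. Ifit1, an RNA-binding inhibitor of translation, averaged 8.99 ± 3.35 FPKM in AdKO and 4.63 ± 1.25 FPKM in AdCre, with overlap. A match does not show binding.

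Antigen presentation and complement genes had list medians above 0, by a lesser amount. Of 19 MHC class I and immunoproteasome genes 16 were positive (median 0.16), and of 12 MHC class II genes 11 (median 0.31). At an unadjusted p under 0.05, 3 and 0 of them were higher, and 4.76% of all genes. H2-Ab1, a class II chain, stood at 856, 437, 465 and 876 FPKM in AdKO against 458, 575, 422 and 403 FPKM in AdCre. Only replicates 1 and 4 were above the controls, and without them the class II median was -0.10 and the class I median 0.05. The summed class I level overlapped, at 4310 to 4673 FPKM in AdKO and 4022 to 4982 FPKM in AdCre. Complement behaved otherwise, with 14 of 15 genes positive (median 0.34, and 0.25 without AdKO replicates 1 and 4). C1ra, a protease of the first component, stood at 80.5, 81.7, 94.0 and 108 FPKM in AdKO against 58.6, 58.3, 62.2 and 69.6 FPKM in AdCre (limma log2 fold change 0.54, SE 0.11, adjusted p = 0.244), without overlap. Zc3h12a, which encodes regnase-1, an RNase that destroys inflammatory messages, stood at 13.4, 11.5, 13.9 and 12.3 FPKM in AdKO against 8.42, 9.43, 7.98 and 7.67 FPKM in AdCre. It had one of the smallest p-values of all genes (limma log2 fold change 0.56, SE 0.09, adjusted p = 0.186). Inflammatory cytokine genes had a median of 0.30 with 25 of 31 positive, and a median of 0.00 without AdKO replicates 1 and 4. Il18 averaged 9.78 ± 1.19 FPKM in AdKO and 7.08 ± 1.51 FPKM in AdCre, without overlap. Ccl2, the monocyte attractant, stood the other way at 16.4 ± 3.60 FPKM in AdKO and 29.0 ± 12.2 FPKM in AdCre, and so did Nos2, at 1.71 ± 0.468 FPKM in AdKO and 2.49 ± 0.531 FPKM in AdCre.

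Among leukocyte markers, the summed level of genes of gamma-delta T cells was higher in every AdKO library than in any control. These cells sit in fat as residents and make interleukin 17. The constant region Tcrg-C1 (ENSMUSG00000076749, chromosome 13, 19214103 to 19217024, plus strand, GRCm38) stood at 4.03, 2.20, 6.39 and 3.66 FPKM in AdKO against 1.11, 0.654, 0.825 and 1.13 FPKM in AdCre. Cd163l1, a scavenger receptor of gamma-delta T cells, stood at 2.55, 2.18, 5.45 and 4.19 FPKM in AdKO against 0.354, 0.543, 0.803 and 0.555 FPKM in AdCre. All AdKO libraries were above all controls in both genes, and AdKO replicate 3 was the highest. By limma, log2 fold changes were 1.34 ± 0.23 for Tcrg-C1 and 1.5 ± 0.23 for Cd163l1 (± SE), and adjusted p-values 0.206 and 0.186. Trdc, the delta chain constant region, was below the filter, at 1.15, 0.963, 1.73 and 1.28 FPKM in AdKO against 0.164, 0.216, 0.406 and 0.128 FPKM in AdCre, without overlap. Cxcr6, a chemokine receptor of tissue-resident lymphocytes, stood at 4.67, 2.80, 8.72 and 9.91 FPKM in AdKO against 0.783, 1.06, 1.39 and 0.483 FPKM in AdCre (limma log2 fold change 1.86, SE 0.33, adjusted p = 0.206). Of 8 tested members of 12 listed, 7 were positive and 7 were higher at an unadjusted p under 0.05, and 3 did not overlap. The median was 0.94, and 1.0 without AdKO replicates 1 and 4. Over all genes, 4.76% were higher at that p and 2.79% were higher without overlap. Tcrg-C1 and Cd163l1, of this list, and Cxcr6 averaged below 1 FPKM in AdCre, so they passed the filter through AdKO alone. Such genes had to be higher, and their p-values and the counts above are descriptions only. The summed level over all 12, members below the filter included, was 19.9 to 41.3 FPKM in AdKO and 9.84 to 15.7 FPKM in AdCre.

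Other T cell, B cell and myeloid markers depended on single libraries. Zap70, the kinase of the T cell receptor, stood at 2.23, 1.0, 2.12 and 2.61 FPKM in AdKO against 0.57, 0.854, 1.02 and 0.568 FPKM in AdCre, with overlap through AdKO replicate 2 alone. Zap70 averaged below 1 FPKM in AdCre, so it passed the filter through AdKO alone and had to be higher. The T cell counts and median include it and are descriptions only. The T cell list had a median of 0.51 with 12 of 14 positive, and 0.16 without AdKO replicates 1 and 4. Cd79a, of the B cell receptor, stood at 9.68, 1.76, 5.80 and 12.8 FPKM in AdKO against 1.51, 5.42, 7.75 and 2.22 FPKM in AdCre, where both groups held high and low libraries. All 16 B and plasma cell genes were positive (median 0.46), 0 reached an unadjusted p under 0.05, and the median was -0.17 without AdKO replicates 1 and 4 and 1.12 without AdCre replicates 2 and 3. All 17 macrophage genes were positive (median 0.37), and the median was -0.02 without AdKO replicates 1 and 4. Adgre1, a common surface marker of macrophages, stood at 251, 108, 111 and 185 FPKM in AdKO against 168, 128, 98.7 and 147 FPKM in AdCre. Groups did not overlap for 1 of the 17 macrophage genes, and for 6.55% of all genes. It was Maf, a factor of resident macrophages, at 27.6 ± 3.68 FPKM in AdKO and 19.0 ± 2.08 FPKM in AdCre. Apoe, a lipid carrier secreted by macrophages, stood at 3670, 1660, 1948 and 2891 FPKM in AdKO against 1401, 1651, 1169 and 1393 FPKM in AdCre, without overlap but with AdKO replicate 2 next to the highest control. Cd5l, of phagocytic macrophages, was at 22.6 and 37.0 FPKM in AdKO replicates 1 and 4 and at 3.54 and 3.68 FPKM in replicates 2 and 3, against 1.58 to 2.88 FPKM in AdCre.

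Neutrophil markers were high in part of the AdKO libraries. S100a9, an alarmin, stood at 22.1, 4.45, 80.1 and 52.7 FPKM in AdKO against 2.33, 7.30, 2.23 and 1.05 FPKM in AdCre, and AdKO replicate 2 lay within the controls. Its partner S100a8 stood at 21.3, 6.06, 48.8 and 27.4 FPKM in AdKO against 17.3, 28.9, 21 and 19.7 FPKM in AdCre, so the pair differed in the controls. Csf3r, the receptor for granulocyte colony-stimulating factor, averaged 10.4 ± 5.09 FPKM in AdKO and 4.30 ± 0.877 FPKM in AdCre, with overlap. The 9 tested members of 17 had a median of 1.15, and the summed level over all 17 was 24.9 to 205 FPKM in AdKO and 32.6 to 56.4 FPKM in AdCre. Mmp9 was at 27.3 FPKM in AdKO replicate 4 and at 1.19 to 3.85 FPKM in the other 3, against 0.303 to 1.06 FPKM in AdCre. Mmp9, one of the 9 tested members, averaged below 1 FPKM in AdCre. It passed the filter through AdKO alone and had to be higher, so the median of the 9 is a description only.

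Mesothelial genes were higher in AdKO, and most of all in replicates 2 to 4. The mesothelium is the single sheet of cells that lines the surface of visceral fat. Gata5, a transcription factor (ENSMUSG00000015627, chromosome 2, 180325133 to 180334699, minus strand, GRCm38), stood at 1.79, 2.51, 2.67 and 2.90 FPKM in AdKO against 0.655, 0.709, 0.328 and 0.82 FPKM in AdCre. The lowest AdKO library was above the highest control (limma log2 fold change 1.09, SE 0.15, adjusted p = 0.186), and 112 to 194 reads were recovered in an AdKO library and 24 to 50 in an AdCre library. With an average of 0.628 ± 0.211 FPKM in AdCre, Gata5 passed the filter through AdKO alone. Lrrn4, a mesothelial surface protein, stood at 8.98, 15.6, 14.4 and 15.3 FPKM in AdKO against 5.79, 4.53, 6.30 and 8.21 FPKM in AdCre. Wt1, the factor used to mark mesothelium, averaged 7.87 ± 1.71 FPKM in AdKO and 3.82 ± 1.18 FPKM in AdCre, and Upk1b, a uroplakin, 21.4 ± 5.78 FPKM in AdKO and 10.3 ± 2.90 FPKM in AdCre. These 3 genes did not overlap. Msln and Upk3b, which define the cell type, did overlap, with Msln at 17.5, 48.7, 37.5 and 41.8 FPKM in AdKO against 25.0, 13.5, 17.2 and 21.1 FPKM in AdCre, and AdKO replicate 1 the exception. Of 13 tested markers 11 were positive (median 0.68, and 0.83 without AdKO replicates 1 and 4), 7 were higher at an unadjusted p under 0.05 and 5 did not overlap. Over all genes, 4.76% were higher at that p and 2.79% were higher without overlap. The summed level over 14 listed markers overlapped, at 115 to 231 FPKM in AdKO and 73.2 to 195 FPKM in AdCre.

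Several further genes with small p-values were higher alongside. Cxadr, a junction protein and virus receptor, stood at 5.21, 4.38, 6.75 and 6.88 FPKM in AdKO against 2.09, 1.61, 2.34 and 2.66 FPKM in AdCre, and Prr15 at 3.02, 2.14, 3.69 and 4.16 FPKM in AdKO against 1.07, 1.13, 0.838 and 0.834 FPKM in AdCre. Prg4, which encodes the lubricant lubricin, averaged 13.7 ± 1.67 FPKM in AdKO and 7.55 ± 1.65 FPKM in AdCre. Myrf, a membrane-bound transcription factor, averaged 7.92 ± 2.52 FPKM in AdKO and 3.31 ± 0.551 FPKM in AdCre, and Ptgs1, a cyclooxygenase, 9.97 ± 2.19 FPKM in AdKO and 5.16 ± 0.766 FPKM in AdCre. Prr15, at 0.968 ± 0.155 FPKM in AdCre, passed the filter through AdKO alone. None of these 5 overlapped, and Cxadr and Prr15 each had a log2 fold change of 1.09 with a limma adjusted p of 0.186. Whether they share a cell of origin with the mesothelial markers was not tested. Other tissue compartments stood closer to their controls. Of 13 blood vessel endothelial genes 12 were negative (median -0.15), of 10 mural cell genes 8 (median -0.28), and of 12 progenitor genes 1 (median 0.19). With AdKO replicates 2 and 3 alone these medians were -0.04, 0.02 and 0.12, so that of the mural cells changed sign. Cspg4, the pericyte protein NG2, stood at 3.19, 5.75, 6.63 and 4.54 FPKM in AdKO against 7.30, 12.2, 8.83 and 8.47 FPKM in AdCre, without overlap.

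**Figure D5:**
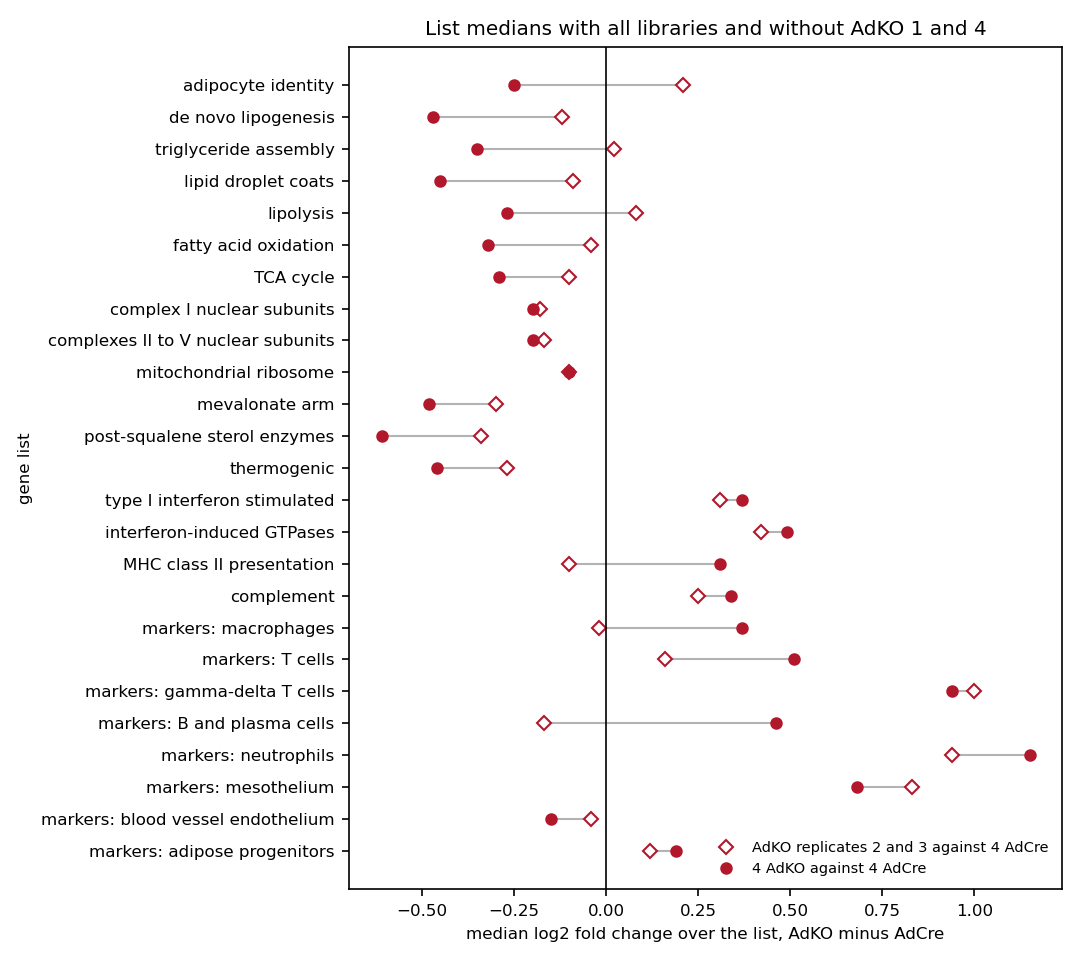
Median log2 fold change, AdKO minus AdCre, of 25 gene lists with 4 AdKO libraries (filled) and with AdKO replicates 2 and 3 alone (open), each against 4 AdCre libraries. The adipocyte identity median is -0.25 with all 4 and 0.21 without replicates 1 and 4, and the macrophage median 0.37 and -0.02, while complex I, interferon, gamma-delta T cell and mesothelial medians keep their sign.

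Of the protein quality control lists, that of the proteasome was lower by a small and even amount and the others lay near 0. Of 31 proteasome subunits 29 were negative (median -0.09), 6 were lower at an unadjusted p under 0.05 and 9 did not overlap. Over all genes, 6.23% were lower at that p and 3.76% were lower without overlap. The summed level of the proteasome was 1150 to 1177 FPKM in AdKO and 1232 to 1291 FPKM in AdCre. Psma6, a core alpha subunit, stood at 69.5, 80.5, 76.5 and 75.5 FPKM in AdKO against 87.7, 90.8, 91.8 and 89.2 FPKM in AdCre (limma log2 fold change -0.25, SE 0.07, adjusted p = 0.323). Nedd8, a ubiquitin-like modifier, averaged 61.7 ± 2.34 FPKM in AdKO and 77.3 ± 4.02 FPKM in AdCre, also without overlap. Heat shock genes had a median of -0.06 with 12 of 19 negative, selective autophagy genes -0.06 with 12 of 17 negative, and unfolded protein response genes 0.04 with 8 of 19 negative. The medians of autophagy and of the unfolded protein response changed sign, to 0.01 and -0.09, without AdKO replicates 1 and 4, where that of the proteasome was -0.08. Of 26 NRF2 and antioxidant genes 18 were negative (median -0.24, and 0.00 without AdKO replicates 1 and 4). Prdx6, a peroxiredoxin, stood at 39.2, 56.6, 55.5 and 37.9 FPKM in AdKO against 68.4, 72.0, 66.9 and 71.8 FPKM in AdCre, without overlap. Gclm, of glutathione synthesis, averaged 7.47 ± 0.662 FPKM in AdKO and 9.46 ± 0.728 FPKM in AdCre, without overlap.

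The knockout effect was then set against that of tubastatin A, an inhibitor of the deacetylase, in the other 8 libraries. Those 8 libraries are labelled 25 weeks old and as a global HDAC6 knockout, in conflict with the series' design line, so the genotype behind the drug effect is uncertain. The difference of the effects passed for 0 of 13257 genes (0.0%) by limma, with 1190 (8.98%) at an unadjusted p under 0.05 and a smallest adjusted p of 0.099. Dhcr7 had a log2 fold change of -0.70 in AdKO and 0.09 with tubastatin, a difference of -0.79 (SE 0.14, limma adjusted p = 0.099). Gata5 had 1.09 in AdKO and -0.01 with tubastatin (difference 1.10, limma adjusted p = 0.099), and Pik3ip1 0.50 in AdKO and -0.25 with tubastatin (difference 0.75, limma adjusted p = 0.099). The clock output gene Dbp, at 29.2 ± 4.38 FPKM in AdKO and 22.5 ± 2.0 FPKM in AdCre, had 0.36 in AdKO and -0.75 with tubastatin (difference 1.11, limma adjusted p = 0.099). Of 31 proteasome genes, 26 reached an unadjusted p under 0.05 for the difference, with a median of -0.09 in AdKO and 0.17 with tubastatin. Medians also had opposite signs for interferon-induced GTPases, at 0.49 in AdKO and -0.22 with tubastatin, with 10 of 15 at that p, and for T cell genes, at 0.51 in AdKO and -0.51 with tubastatin, with 8 of 14. The T cell genes include Zap70, which passed the filter through AdKO alone, as did Gata5, so these values are descriptions only. Sterol medians were -0.48 and -0.61 in AdKO and -0.11 and -0.08 with tubastatin, with 2 of 9 and 3 of 12 at that p. None of these differences passed adjustment over all genes.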

How the data were processed

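RNA was extracted with Trizol, treated with DNase and cleaned on RNeasy columns, per the labels' protocols. The authors deposited 1 table of FPKM per gene and library, named by Ensembl ID, and 0 of its value columns were left without a sample. The sources used here name neither aligner, counter nor genome build for the table. Symbols, coordinates and gene lengths came from GENCODE M21 (GRCm38), where 54409 of 54532 IDs had a symbol, and promoter windows from RefSeq GRCm38.p6.

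Genes that averaged 1 FPKM or more across AdKO and AdCre were tested as log2(FPKM + 1) with limma 3.58.1 in R 4.3.3, two-sided, with Benjamini-Hochberg adjustment at 0.05 and no covariate. Every log2 fold change is AdKO minus AdCre on that scale, which understates the change of low genes. A group that does not overlap has all 4 libraries on one side of the other 4. The difference from the drug effect was an interaction contrast over 16 libraries. FPKM times gene length gave whole reads, within 0.01, for 96.3% to 96.5% of values, which gives the depth and a voom alternative over 12607 genes.

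The gene lists and the rules were chosen with earlier results of these data known. Named genes were Hdac6, Lep, Adipoq and Ucp1, the 20 smallest p-values and 8 largest non-overlapping changes per direction, up to 5 members with the smallest p of each list, and all sterol enzymes and deacetylases, and some of these are not reported here. Adgre1, Etfa, Ifit1, Insr, Msln, Nedd8, Rsad2, S100a8, Stat2 and Upk3b were added after their values were seen. Alternatives were the pseudocount, the filter, the scaling, array weights, a shared spread, a replicate block, libraries left out and voom.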

Additional observations from a re-analysis of the deposited data

Results flagged for a closer look

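Of 152 groups of 4 libraries checked, 9 held 1 library far from the other 3 by Dixon's test, whose limit chance passes in about 1 group in 20. In AdKO, Mmp9, a matrix protease, was at 27.3 FPKM in replicate 4 and at 1.19 to 3.85 FPKM in the others, and Rpp25, an RNase P subunit, at 7.2 FPKM in replicate 4 and 3.98 to 4.42 FPKM in the others. AdKO replicate 3 was apart for Chil1, a chitinase-like protein, at 8.58 FPKM against 3.41 to 4.09 FPKM, for Tph2 at 37.2 FPKM against 16.6 to 19.3 FPKM, and for Ndufa3 at 27.4 FPKM against 30 to 30.4 FPKM. Ndufb4 was at 14 FPKM in AdKO replicate 1 and at 11.9 to 12.1 FPKM in the others, all below the controls. In AdCre, Trbj1-6, a short T cell receptor segment, was at 0.877 FPKM in replicate 2 and listed at 0 in the others, on 1 read. Summed neutrophil markers reached 56.4 FPKM in AdCre replicate 2, with 32.6 to 35.9 FPKM in the others, and summed lymphatic endothelium markers 52 FPKM in AdCre replicate 1, with 29 to 32.4 FPKM in the others.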

How the results depend on the processing

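The count of genes at an adjusted p under 0.05, 0 as reported, was 1 with no filter on low values, 46 with 1 spread shared by all 16 libraries, and 0 to 4 with 1 library left out, with 4 without AdKO replicate 2 and 1 without AdKO replicate 3. It was 0 under every other alternative run. Genes higher at an unadjusted p under 0.05, 631 as reported, numbered 1016 with no filter, 313 with a mean FPKM of at least 5, 405 without AdCre replicates 2 and 3, and 412 to 830 with 1 library left out. Genes lower at that p, 826 as reported, numbered 352 without AdCre replicates 2 and 3 and 473 to 1191 with 1 library left out. Without AdKO replicates 1 and 4 they were 490 higher and 555 lower. For the difference from the drug effect, 0 to 5 genes passed with 1 library left out, with 5 without AdKO replicate 2. Genes at an unadjusted p under 0.05 for that difference, 1190 as reported, numbered 704 in a refit with a mean FPKM of at least 5. Fewer genes are tested under a stricter filter, and the cause of the other changes was not tested. The Hdac6 difference, -0.738 FPKM as reported, lay between -0.964 and -0.481 FPKM with 1 library left out. The sign of 51 of 363 named genes turned under at least 1 of 21 alternatives.

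Replicate numbers did not pair the libraries: same-numbered libraries deviated with correlations of 0.324, -0.229, 0.193 and -0.212. With the number as a replicate block, 0 genes were called, with 713 higher and 853 lower at an unadjusted p under 0.05, and 1372 for the difference from the drug effect. The block gave Hdac6 an exact p of 0.125, the smallest that sign flips over 4 pairs allow. The unpaired permutation test gave 0.0571 and allows 0.0286, so the 2 p-values cannot be set against each other.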

Other observations

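Mast cell markers showed a split that the 4 AdKO libraries hide as a group. Cma1, a chymase of mast cells, stood at 48.2, 23.9, 13.6 and 66.0 FPKM in AdKO against 33.3, 51.1, 30.6 and 62.3 FPKM in AdCre, so AdKO replicates 2 and 3 lay below all controls. Of 8 tested markers 7 were negative with a median log2 fold change of -0.31, and 0 were lower at an unadjusted p under 0.05. Without AdKO replicates 1 and 4, a choice made after seeing the data, all 8 were negative with a median of -0.94 and 7 were lower at that p. Cell cycle genes moved likewise, with 17 of 29 positive (median 0.02) in all 4 AdKO libraries and 3 of 29 (median -0.22) without replicates 1 and 4.

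Egr1 and Dcstamp, outside the groups above, also had no overlap between the groups, as did 6.55% of all genes. Limma, which gave the p-values here, called neither. Egr1, an immediate early transcription factor, stood at 7.85, 8.89, 4.97 and 7.86 FPKM in AdKO against 11.8, 14.4, 16.3 and 10.7 FPKM in AdCre, with no overlap (log2 fold change -0.78, adjusted p = 0.284). The 17 immediate early genes tested, Egr1 included, had a median of -0.08 with 10 negative, and of -0.17 with 13 negative without AdKO replicates 1 and 4. Egr2 averaged 7.31 ± 1.96 FPKM in AdKO and 10.3 ± 2.7 FPKM in AdCre, and Egr3 1.16 ± 0.516 FPKM in AdKO and 1.82 ± 0.37 FPKM in AdCre, both with overlap. Dcstamp, which drives the fusion of macrophages, stood at 1.85, 2.21, 2.13 and 1.93 FPKM in AdKO against 4.45, 3.16, 2.79 and 4.45 FPKM in AdCre, also with no overlap (log2 fold change -0.62, adjusted p = 0.244). Markers of lipid-associated macrophages had a median of 0.07, with Trem2 at 73.4 ± 34.8 FPKM in AdKO and 61.4 ± 21 FPKM in AdCre. Clock genes had a median of 0.03 in AdKO and -0.34 with tubastatin, and 9 of 18 reached an unadjusted p under 0.05 for the difference.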
